A study of Mus musculus with 3 samples.

Results

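The genes described here encode the translation initiation and elongation factors of the mouse, measured by polyA plus RNA-seq in regulatory T cells. They were chosen by symbol, as the protein-coding genes whose symbol starts with Eif1 to Eif6 or with Eef, leaving out Eif2ak2 and the gene on chromosome Y. This gave 66 genes of the 22457 in the deposited tables. The rule also takes Eef1akmt4, which was not analysed here.

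The samples were 3 libraries of regulatory T cells, the CD4 T cells that restrain other immune cells. They came from adult mice aged 4 months, as primary cells whose origin the labels give as bone marrow haematopoietic cells. The labels name no strain, genotype or treatment, and number the libraries as technical replicates 1, 2 and 3 of 1 biological replicate. There was therefore 1 group and no contrast between conditions. Every SD below given after ± is the spread between libraries (n = 3), not between animals. An SD over subunits of a complex is named as such. Total gene counts were 3206781, 3228215 and 2872350 in libraries 1, 2 and 3, so that 3 counts equalled 0.936, 0.929 and 1.04 CPM (counts scaled to a library total of 1000000). All 8 regulatory T cell markers examined, Foxp3 among them, reached 1 CPM in every library. So did all 5 B cell, 2 CD8 T cell and 4 monocyte or macrophage markers, so this criterion alone does not tell these cells apart. It was met by 3 of 4 plasma cell, 1 of 5 erythroid and 0 of 5 neutrophil markers.

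Translation starts when the initiator tRNA, carried by eIF2 in its GTP form, joins the small ribosomal subunit together with eIF1, eIF1A, eIF3 and eIF5. The eIF4 factors bind the mRNA cap and unwind the leader, the complex scans to the start codon, and eIF5B joins the large subunit. In elongation eEF1A brings aminoacyl-tRNA to the ribosome, the eEF1B subunits recharge eEF1A, and eEF2 moves the ribosome along the mRNA. In T cells this machinery is a known point of control by mTORC1, through the eIF4E-binding proteins, and by the eIF2 kinases.

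The factor genes were widely detected and abundant. Of the 66 genes, 62 (93.9%) reached 1 CPM in every library, against 49.8% of protein-coding genes. Their median level was 97.5 CPM, against 1.82 CPM over protein-coding genes and 48.4 CPM over genes with a mean count of at least 10. They held 1.34%, 1.41% and 1.41% of the counts in libraries 1, 2 and 3 (95% exact binomial intervals 1.33 to 1.35%, 1.40 to 1.42% and 1.40 to 1.43%), a mean of 1.39 ± 0.0426%. Intervals and floors cover counting error only. Of these counts eIF3 subunits held 33.3%, eIF4 factors 25.9% and elongation factors 19.7%.

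Several of these genes have processed copies elsewhere in the genome, and the levels below have to be read beside them. Coding sequences of the longest GENCODE M21 model were cut into all stretches of 50 bases (50-mers), and each was looked for in the transcripts of genes that do not overlap the gene. A total of 9 of the 66 genes (13.6%) shared 50% or more of their coding 50-mers, against 8.71% of protein-coding genes. Among genes with a mean count of at least 10 it was 7 of 60 factor genes (11.7%), against 4.23% of protein-coding genes. The stretches below show 60 coding bases of 4 of these genes beside the copy that shares most with each, and beside a related gene where one exists. They are given because a read that lies within such a stretch fits both the gene and its copy. Each is the first stretch past coding base 60, taken codon by codon, in which the copy has no difference and no partner a gap. Identity to the copy within the stretch was thus set by the choice, and identity over the whole coding sequence is given below. Lower case marks identity to the first gene of each set, and capitals mark the bases that differ from it.

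Bases 61 to 120 of the coding sequence of Eif4a1, the main cap-complex helicase (chr11:69666936-69672423, minus strand, GRCm38), also stood letter for letter in the processed pseudogene Eif4a-ps4 (chr1:60703932-60705149, plus strand). The paralogue Eif4a2 (chr16:23107444-23114136, plus strand) differed at 12 of the 60 bases.
Eif4a1: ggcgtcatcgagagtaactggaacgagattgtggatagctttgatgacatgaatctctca
Eif4a-ps4: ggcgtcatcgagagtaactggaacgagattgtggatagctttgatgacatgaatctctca
Eif4a2: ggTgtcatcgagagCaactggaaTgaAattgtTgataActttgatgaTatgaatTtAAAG

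Coding bases 70 to 129 of Eif2s3x, the gamma subunit of eIF2 (chrX:94188707-94212862, minus strand), stood in the processed pseudogene Gm2223 (chrX:33505661-33507010, plus strand). The Y-linked copy Eif2s3y (chrY:1010543-1028847, plus strand), which the choice of genes leaves out, differed at 5 bases.
Eif2s3x: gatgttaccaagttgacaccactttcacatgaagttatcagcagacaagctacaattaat
Gm2223: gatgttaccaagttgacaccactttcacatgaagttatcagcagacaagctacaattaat
Eif2s3y: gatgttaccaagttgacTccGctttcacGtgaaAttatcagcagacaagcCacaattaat

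Coding bases 79 to 138 of Eef1a1, the ubiquitous form of eEF1A (chr9:78478449-78489151, minus strand), stood in the processed pseudogene Gm13456 (chr2:40555752-40557116, plus strand). Eef1a2, the form known from muscle and neurons (chr2:181147653-181157014, minus strand), differed at 6 bases.
Eef1a1: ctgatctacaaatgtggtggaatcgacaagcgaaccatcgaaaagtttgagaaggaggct
Gm13456: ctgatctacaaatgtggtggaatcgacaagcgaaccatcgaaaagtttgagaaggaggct
Eef1a2: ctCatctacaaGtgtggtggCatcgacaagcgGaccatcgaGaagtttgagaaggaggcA

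Coding bases 61 to 120 of Eef1g, the gamma subunit of eEF1B (chr19:8967041-8978479, plus strand), stood in the processed pseudogene Gm4366 (chr7:116824510-116825851, minus strand).
Eef1g: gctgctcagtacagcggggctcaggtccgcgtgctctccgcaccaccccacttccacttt
Gm4366: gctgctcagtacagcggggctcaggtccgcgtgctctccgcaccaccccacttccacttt

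Over the whole aligned coding sequence Eif4a-ps4 was 99.9% identical to Eif4a1 and differed at 1 base. Gm2223 was identical to Eif2s3x over all 1347 aligned bases, Gm4366 matched Eef1g at 99.6% and Gm13456 matched Eef1a1 at 98.6%. The functional relatives were far less alike, at 78.2% for Eif4a2 and Eif4a1, 86.3% for Eif2s3y and Eif2s3x, and 80.7% for Eef1a2 and Eef1a1. Copies were mostly processed pseudogenes: all 8 genes that shared 50-mers with Eif4a1 and all 18 that did so with Eef1a1 were of this type. How reads that match several places were counted is not given in the sources used here.

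Levels of different genes are compared below as mean count per base of coding sequence, on the unscaled counts. The coding length is that of the longest model, for example 1980 bases for Eef1d and 762 for Eif1a. A longer model lowers the value, and which models were expressed was not examined. In the plot of all factor genes by role, the spread between genes was far wider than that between libraries.

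**Figure D1:**
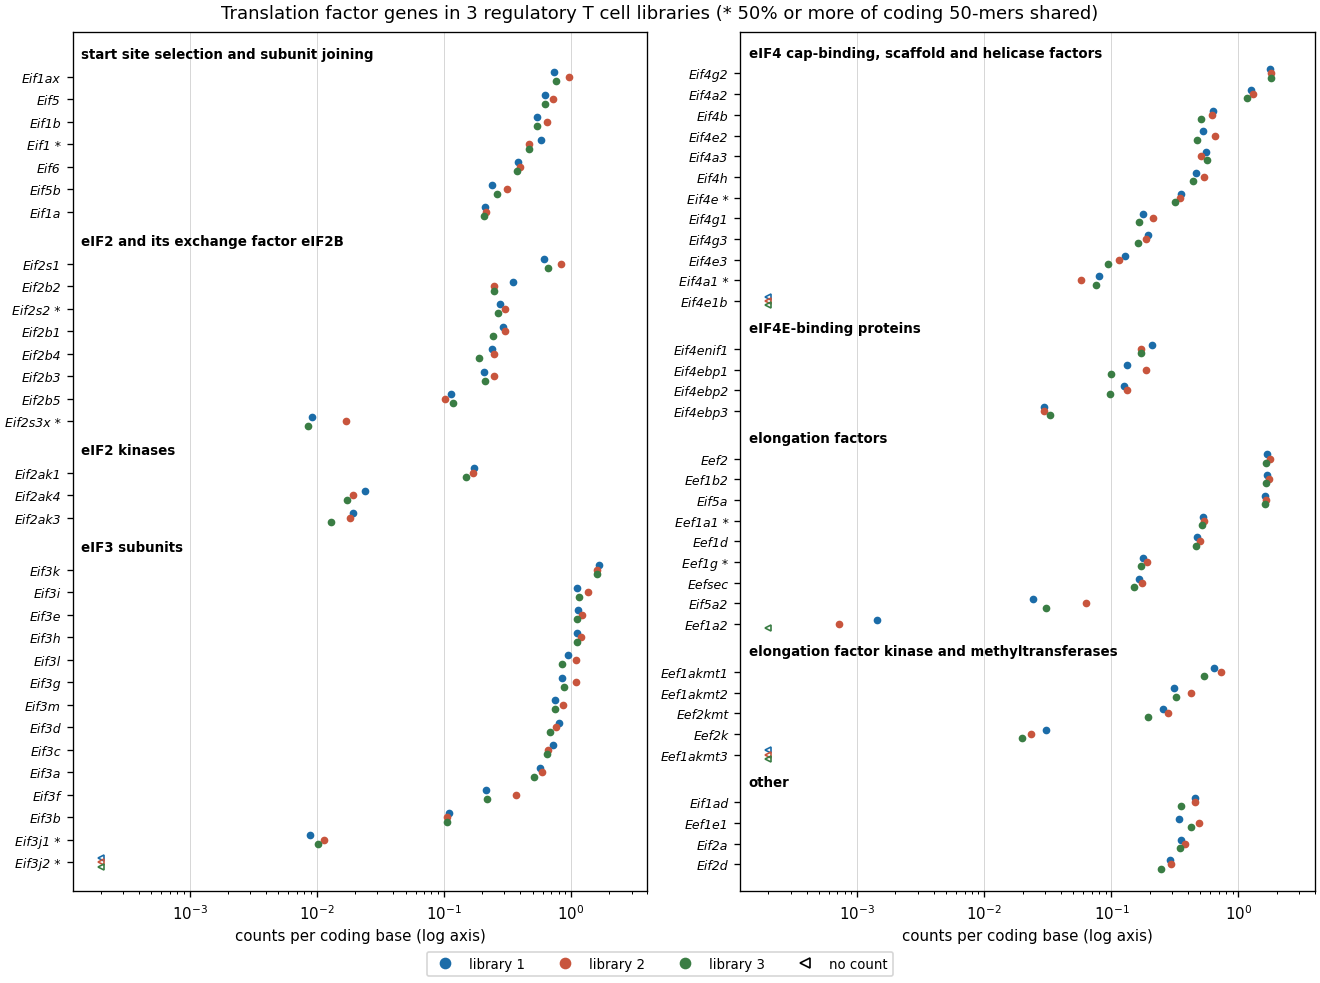
Counts per coding base (log axis) of the 66 genes in the 3 libraries, grouped by role and ordered by mean. Coloured points are libraries 1, 2 and 3, open triangles stand for no count, and an asterisk marks genes that share 50% or more of their coding 50-mers. Eif4g2, Eef2, Eef1b2, Eif3k and Eif5a lie at the right, between 1.61 and 1.79.

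Among the factors of start site selection and subunit joining, all 7 genes were detected. Eif1ax, an eIF1A gene that helps the ribosome scan, had 320, 417 and 328 counts in libraries 1, 2 and 3, or 0.822 ± 0.125 counts per coding base. Eif5, which makes eIF2 hydrolyse its GTP at the start codon, followed at 0.657 ± 0.054 (812, 926 and 800 counts). Eif1 and its paralogue Eif1b, which guard start codon choice, had levels of 0.505 ± 0.0656 and 0.578 ± 0.064 (log2 ratio -0.20 ± 0.29, and -1.10 per exonic base). Eif1 shared 94.5% of its coding 50-mers with 18 other genes, and Eif1b shared none. Eif5b, the GTPase of subunit joining, stood at 0.272 ± 0.0385 (874, 1147 and 952 counts), Eif6, which keeps free large subunits apart from small ones, at 0.384 ± 0.00926, and Eif1a at 0.211 ± 0.00262.

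The genes of eIF2 were uneven. Eif2s1, the alpha subunit that the stress kinases phosphorylate, had 585, 784 and 627 counts in libraries 1, 2 and 3 and 0.704 ± 0.111 counts per coding base. Eif2s2, the beta subunit, stood at 0.283 ± 0.0175 (277, 300 and 266 counts). Eif2s3x had 13, 24 and 12 counts, or 0.0115 ± 0.0047 per coding base, although the protein is part of the same trimer. The shares of coding 50-mers found elsewhere were 31.8% for Eif2s1, 73.4% for Eif2s2 and 94.95% for Eif2s3x. The part of shared sequence in these levels was not tested. The Y-linked Eif2s3y, which shared none, had 1034, 1023 and 683 counts (0.645 per coding base). This gene was looked at after the values of Eif2s3x were seen.

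The 5 subunits of eIF2B, which reloads eIF2 with GTP, share no 50-mer with genes elsewhere and lay close together. Eif2b2 (beta) stood at 0.284 ± 0.0603 counts per coding base, Eif2b1 (alpha) at 0.281 ± 0.0312, Eif2b4 (delta) at 0.224 ± 0.0314 and Eif2b3 (gamma) at 0.221 ± 0.0235. Each neighbouring pair in this order overlapped over the libraries. Eif2b5, the catalytic epsilon subunit, was lower at 0.111 ± 0.00748, below the other 4 in every library per coding base. Not divided by length, it exceeded Eif2b1 in library 3, at 252 against 225 counts. Per exonic base Eif2b3 was the lower, with mean counts of 300 over 6520 exonic bases, against 239 over 2595 for Eif2b5. The SD over the 5 subunits was 0.55 on the log2 scale of counts per coding base, and the highest was 2.55-fold above the lowest.

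All 3 kinases of eIF2 in the list were detected in every library. Eif2ak1 (HRI, which senses haem) had 321, 313 and 280 counts and 0.164 ± 0.0117 counts per coding base. Eif2ak4 (GCN2, which senses amino acid shortage) stood at 0.0202 ± 0.00334 and Eif2ak3 (PERK, which senses unfolded protein in the endoplasmic reticulum) at 0.0168 ± 0.0034. Eif2ak4 exceeded Eif2ak3 by 0.28 ± 0.18 on the log2 scale per coding base, was above it in every library, and exceeded it by 0.53 per exonic base. In the chi-square test between libraries described below their adjusted p-values lay between 0.273 and 0.841, and 0 of the 3 had an unadjusted p under 0.05.

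The eIF3 complex holds the scanning ribosome together, and 12 of its subunits had ample counts. Eif3k was highest, with 1098, 1056 and 1054 counts and 1.64 ± 0.038 per coding base, followed by Eif3i at 1.21 ± 0.129, Eif3e at 1.16 ± 0.0535 and Eif3h at 1.15 ± 0.0514. Eif3l, Eif3g, Eif3m, Eif3d, Eif3c and Eif3a lay between 0.965 and 0.559. Eif3f (232, 399 and 236 counts) stood lower at 0.267 ± 0.088.

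Eif3b, a scaffold subunit of the eIF3 core (chr5:140419328-140443360, plus strand), had 267, 256 and 254 counts and 0.108 ± 0.00291 counts per coding base. This was 15.2-fold below Eif3k per coding base, and Eif3b stood below Eif3a and Eif3c, with which it forms the core, in every library. The fold was smaller per exonic base, with mean counts of 259 over 3346 exonic bases for Eif3b and 1069 over 2698 for Eif3k. On that scale Eif3h, at 1217 over 1612, stood above Eif3k. Neither Eif3b nor Eif3f shares a coding 50-mer with a gene elsewhere. Eif3j1, a loosely bound subunit, had 7, 9 and 8 counts, and its copy Eif3j2 had none in any library. The coding sequences of this pair share 99.7% and 98.9% of their 50-mers, and their untranslated sequence was not compared.

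**Figure D2:**
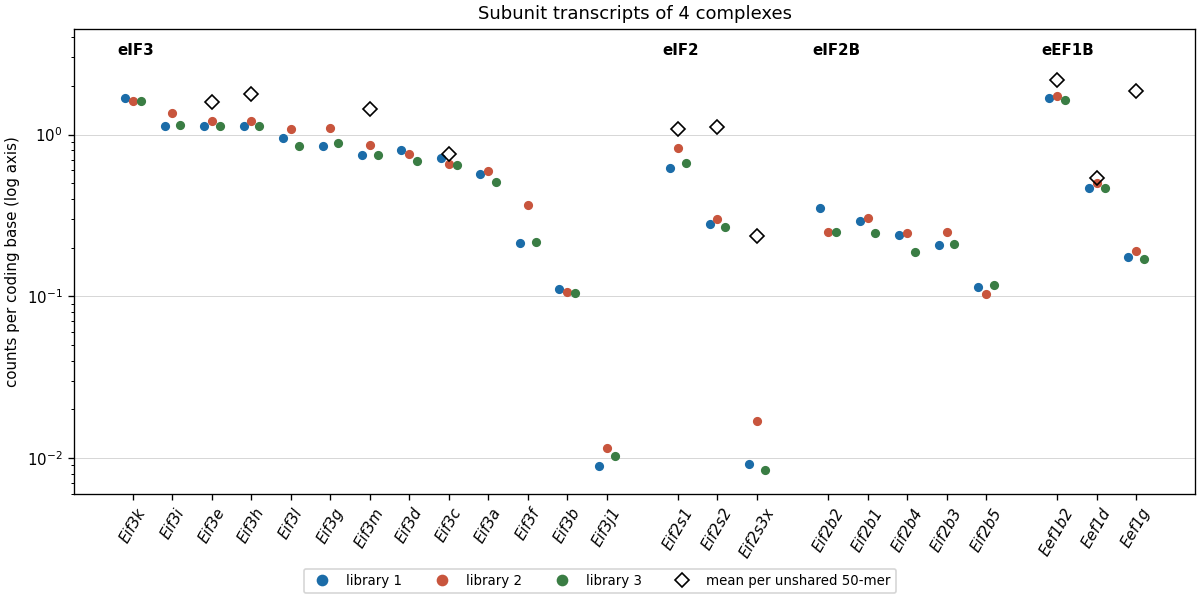
Counts per coding base (log axis) of the subunits of eIF3, eIF2, eIF2B and eEF1B in libraries 1, 2 and 3 (coloured points). Diamonds give the mean count per unshared 50-mer for subunits that share 5% or more. The eIF2B subunits lie between 0.111 and 0.284, and Eif2s3x and Eef1g lie below their partners per coding base. Per unshared 50-mer Eef1g stands at 1.87, while Eif2s3x stays the lowest of eIF2 at 0.237.

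Over 13 eIF3 subunits with a count the SD was 1.99 on the log2 scale of counts per coding base, and 1.09 over the 12 without Eif3j1. It was 3.12 over the 3 subunits of eIF2 and 1.62 over the 3 of eEF1B. Over the 5 of eIF2B it was 0.55, the lowest of the 4 complexes. These values are descriptions with no test.

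Among the eIF4 factors Eif4g2 led. It encodes an eIF4G relative that lacks the eIF4E-binding part and serves cap-independent initiation (chr7:111067750-111083030, minus strand). It had 4843, 4890 and 4870 counts, or 1573 ± 106 CPM, and ranked 5 by mean count among all genes. Its level of 1.79 ± 0.00868 counts per coding base exceeded that of the scaffold Eif4g1 (0.185 ± 0.0254) by 3.28 ± 0.19 on the log2 scale, and by 1.98 when exonic bases were used instead. The other scaffold, Eif4g3, stood at 0.181 ± 0.0175, and the log2 ratio of Eif4g1 to Eif4g3 was 0.03 ± 0.17, within the spread between libraries.

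The helicase genes were split. Eif4a2 had 1546, 1590 and 1422 counts and 1.24 ± 0.0712 counts per coding base, whereas Eif4a1 had 97, 70 and 92 counts and 0.0709 ± 0.0118. Eif4a1 thus lay 4.14 ± 0.31 below Eif4a2 on the log2 scale (log2 ratio -4.14), in every library, while 96.3% of its coding 50-mers and 26.3% of those of Eif4a2 are shared. Eif4a3, the helicase of the exon junction complex, stood at 0.542 ± 0.0295, and the helicase cofactors Eif4b and Eif4h at 0.588 ± 0.0663 and 0.478 ± 0.0467.

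Cap-binding genes came next. Eif4e, the cap-binding protein (chr3:138526179-138559696, plus strand), had 228, 227 and 207 counts and 0.339 ± 0.0182 counts per coding base. Eif4e2, a cap-binding homologue known for repressing translation, stood at 0.553 ± 0.0934 (412, 509 and 367 counts), above Eif4e in every library (log2 ratio of Eif4e to Eif4e2 -0.69 ± 0.19). Eif4e shares 58.3% of its coding 50-mers and Eif4e2 none. Eif4e3 was lower at 0.112 ± 0.0178, and 57.0% of its coding bases overlap the same-strand gene Gm20696. Eif4e1b, an oocyte form, had no count, which allows up to 0.936, 0.929 and 1.04 CPM in libraries 1, 2 and 3.

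The eIF4E-binding proteins hold eIF4E back from eIF4G until mTORC1 phosphorylates them. Eif4ebp1 had 47, 66 and 35 counts and Eif4ebp2 had 45, 48 and 35, or 0.141 ± 0.0445 and 0.119 ± 0.0189 counts per coding base. The log2 ratio of Eif4ebp1 to Eif4ebp2 was 0.21 ± 0.25 per coding base, within the spread between libraries, but 1.57 per exonic base. Eif4ebp3 had 9, 9 and 10 counts. Eif4e exceeded Eif4ebp2 by 1.53 ± 0.17 on the log2 scale per coding base, and by 2.33 per exonic base. Eif4enif1, which carries eIF4E to the nucleus and to P-bodies, stood at 0.184 ± 0.0226 (619, 502 and 505 counts).

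Elongation factors included the second most abundant of the genes, Eef2, the translocase (chr10:81176631-81182498, plus strand). It had 4323, 4568 and 4208 counts, 1409 ± 58.7 CPM and 1.70 ± 0.0714 counts per coding base, and ranked 10 by mean count among all genes. Eef1b2, the beta subunit of eEF1B, stood at 1.68 ± 0.0563 (1129, 1177 and 1102 counts), above Eef1d (delta) at 0.478 ± 0.02 and Eef1g (gamma) at 0.179 ± 0.011 in every library. Eif5a, which helps the ribosome past stalling peptides, stood at 1.61 ± 0.0152 with 743, 754 and 741 counts.

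Eef1a1 had 730, 737 and 713 counts, or 0.524 ± 0.00891 counts per coding base. This is below Eef2 in every library, and 72.6% of the Eef1a1 coding 50-mers are shared. Eefsec, which delivers selenocysteine tRNA, stood at 0.163 ± 0.012. The tissue-restricted paralogues were scarce: Eef1a2 had 2, 1 and 0 counts and Eif5a2 11, 29 and 14. Pooled over libraries Eef1a1 and Eef1a2 had 2180 and 3 counts, a log2 ratio of 9.51 per coding base (95% exact binomial interval 7.96 to 11.8). Eif5a exceeded Eif5a2 by 5.49 ± 0.72 on the same scale.

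Of the enzymes that modify elongation factors, Eef1akmt1 and Eef1akmt2, lysine methyltransferases of eEF1A, stood at 0.637 ± 0.0948 and 0.352 ± 0.0624 counts per coding base. Eef2kmt, which methylates eEF2, stood at 0.242 ± 0.0421. Eef2k, the kinase that inactivates eEF2, was low at 0.0246 ± 0.00538 with 66, 51 and 43 counts, while Eef1akmt3 had no count. Among the 4 remaining genes Eef1e1, a component of the tRNA synthetase complex, stood at 0.418 ± 0.0738, Eif1ad at 0.420 ± 0.056, and the initiator tRNA-binding factors Eif2a and Eif2d at 0.359 ± 0.0165 and 0.276 ± 0.025.

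Genes that share coding 50-mers were then set on their unshared coding sequence. The mean count was divided by the number of coding 50-mers found in no gene elsewhere, where at least 20 remained. This measure was chosen after the data were seen, and it treats all counts of a gene as coming from its unshared coding sequence. Untranslated sequence of these genes was not compared, although Eif4a1 has 4334 exonic against 1218 coding bases. On it Eif4a1 stood at 2.01 ± 0.334 (43 unshared 50-mers), Eef1a1 at 1.99 ± 0.0337, Eef1g at 1.87 ± 0.114, Eif2s2 at 1.12 ± 0.0691, Eif4e at 0.879 ± 0.0472 and Eif2s3x at 0.237 ± 0.0965. For Eif4a1 the value per coding base had been 0.0709 and for Eef1g 0.179.

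The order within families changed with this measure, which raises a gene more the more of its coding 50-mers are shared. These changes follow from the divisor, because the counts stayed the same. Eif4a1 came level with Eif4a2 (log2 ratio 0.18 ± 0.31), Eif4e came above Eif4e2 (0.59 ± 0.19), and the SD over subunits fell to 1.28 for eIF2 and 1.11 for eEF1B on the log2 scale. Over the 12 eIF3 subunits it was 1.20, against 1.09 per coding base, with Eif3b again the lowest at 0.11 per unshared 50-mer. Eif1, Eif3j1 and Eif3j2 had 16, 2 and 8 unshared 50-mers and were left out. Among the 63 genes with a count, Spearman's correlation between the share of 50-mers found elsewhere and the counts per coding base was 0.19, a description over genes that share libraries. The relation did not run in 1 direction. Median counts per coding base were 0.272 in the 43 genes sharing under 5%, 0.746 in the 14 sharing 5 to 50%, and 0.179 in the 9 sharing 50% or more, genes with no count included.

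**Figure D3:**
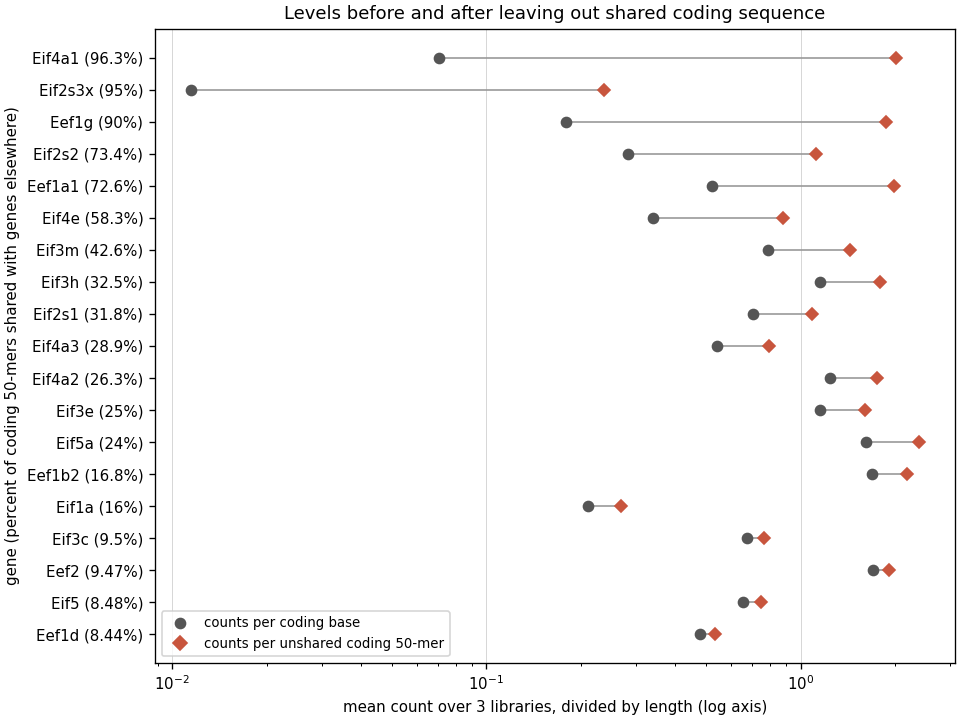
Mean count over the 3 libraries per coding base (circles) and per unshared coding 50-mer (diamonds) on a log axis, for genes with a count that share 5% or more of their 50-mers and keep at least 20. Genes are ordered by the percent shared. Eif4a1, Eef1g and Eef1a1 move from between 0.0709 and 0.524 to between 1.87 and 2.01.

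Earlier results of these data, not shown here, placed near 2 counts per coding base a limit at which counts did not follow depth. Some genes stood above 2, such as the markers Izumo1r at 2.62 and Cd3g at 2.19. A total of 5 factor genes stood at 1.6 or more: Eif4g2, Eef2, Eef1b2, Eif3k and Eif5a. Among all protein-coding genes tested it was 113, or 1.12%. In these 5 the median log2 ratio of unscaled counts, library 3 over library 1, was -0.03, against -0.16 for the library totals. In the factor genes below them it was -0.20 under 0.2 counts per coding base (17 genes), -0.048 from 0.2 to 0.5 (18 genes), -0.092 from 0.5 to 1 (16 genes) and -0.0043 from 1 to 1.6 (4 genes). It thus did not climb steadily with the level, whereas over all genes tested the medians of the same 5 ranges ran -0.21, -0.16, -0.11, -0.06 and -0.04. The counts of Eif4g2 and Eif5a were nearly the same in the 3 libraries, although library 3 was shallower. Whether the limit holds down the levels of these 5 genes was not tested.

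**Figure D4:**
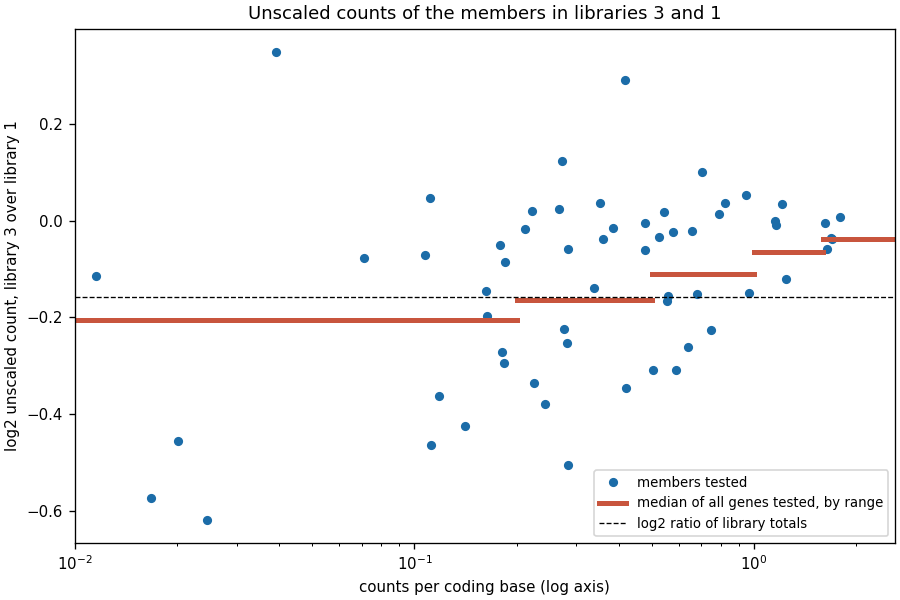
Log2 ratio of unscaled counts, library 3 over library 1, against counts per coding base (log axis) for the 60 factor genes tested (points). Bars give the median over all genes tested in each range of counts per coding base, and the dashed line the log2 ratio of the totals, -0.16. The 5 genes at 1.6 or more lie between -0.06 and 0.01.

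The only test the design allows asks whether the 3 libraries differ by more than counting error. Each gene with a mean count of at least 10 was tested by chi-square against Poisson expectation, with TMM-scaled library sizes and Benjamini-Hochberg adjustment over all 10282 genes tested at a threshold of 0.05. Of the 60 factor genes tested 20 passed (33.3%), against a background of 27.6% of all genes tested. Library 2 was highest in 12 (20% of the 60, against 8.71% of all genes tested), library 3 in 6 (10% against 7.75%) and library 1 in 2 (3.33% against 11.1%). At an unadjusted p under 0.05, 27 of the 60 passed, against 3971 of all 10282 genes tested. With a minimum mean count of 50, 19 of 56 factor genes passed at the adjusted threshold, against 33.2% of all genes tested. A negative binomial test with the common spread between libraries (CV 12.5%) called none of the 60 and 0.904% of all genes. At an unadjusted p under 0.05 it gave 2 of the 60, against 689 of the 10282.

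Differences were small. The fold between the highest and the lowest library, in scaled counts, was under 1.3 in 14 of the 20 genes and 1.5 or more in 2, with a median of 1.27 in them and 1.39 over all genes called. Eif3f (chr7:108934417-108942951, plus strand) exceeded its library 1 level in library 2 by a fold of 1.66 (95% interval by the exact binomial method 1.41 to 1.97; chi-square test, adjusted p = 6.12e-09). Its other 2 libraries were close to each other, at 232 counts in library 1 and 236 in library 3. Eif5a2, with 11, 29 and 14 counts, differed by a fold of 2.55 between libraries 2 and 1 (interval 1.24 to 5.66; chi-square test, adjusted p = 0.0492), on few counts.

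By role, 6 of 12 eIF3 subunits tested passed (Eif3f, Eif3g, Eif3i and Eif3l highest in library 2, Eif3c and Eif3k in library 3), and 4 of 11 eIF4 factors (Eif4e2 and Eif4g1 highest in library 2, Eif4g2 and Eif4a3 in library 3). In eIF2 and eIF2B it was 3 of 8, with Eif2s1 highest in library 2, Eif2b2 in library 1 and Eif2b5 in library 3. Eif5b and Eif1ax were the 2 of 7 start and joining factors, both highest in library 2. Eif5b differed by a fold of 1.27 between libraries 2 and 1 (interval 1.16 to 1.39; chi-square test, adjusted p = 5.4e-06). Eef2 and Eif5a2 were the 2 of 8 elongation factors, highest in libraries 3 and 2. The rest were Eef1akmt2 and Eef1e1, highest in library 2, and Eif4enif1, highest in library 1.

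**Figure D5:**
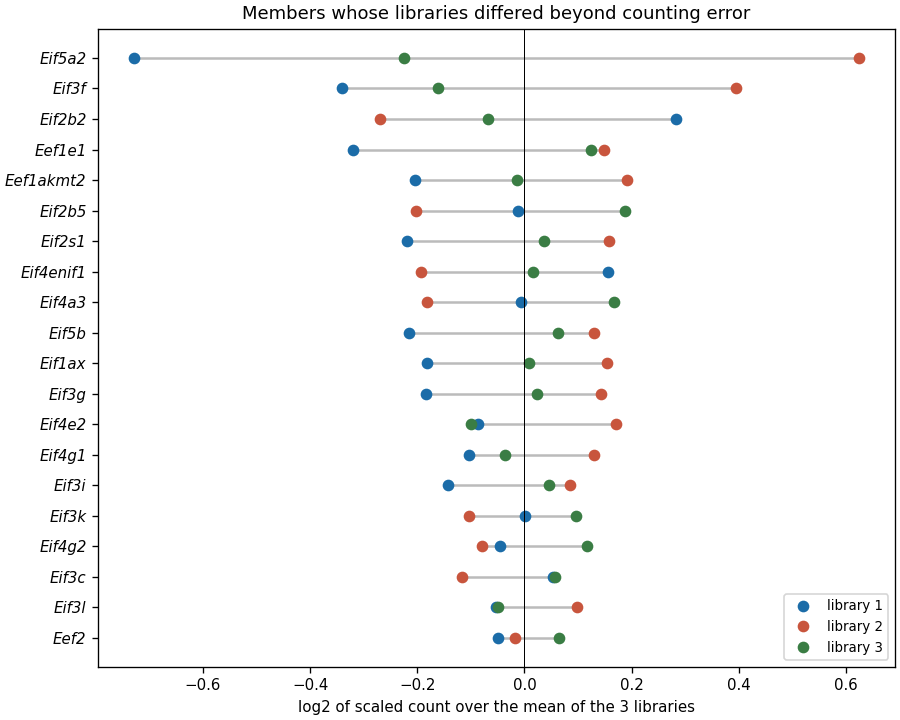
Log2 of the TMM-scaled count over the mean of the 3 libraries, for the 20 genes that passed the chi-square test, ordered by fold. Coloured points are libraries 1, 2 and 3. Library 2 is highest in 12 genes, and 14 of the 20 span less than 1.3-fold.

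Of the 6 genes highest in library 3, only Eif4a3 and Eif2b5 had their highest unscaled count there. Eif4g2, Eef2 and Eif3k stood at 1.6 or more counts per coding base. Without library 2 the test called 8 of the 60 factor genes, against 9.38% of all genes tested, and without library 1 it called 9 of the 60, against 16.5%. Markers of other cells also differed between the libraries. The summed level of 5 neutrophil markers was 1.25, 74.3 and 7.31 CPM in libraries 1, 2 and 3, with S100a8 and S100a9 at 0 in library 1 Elane at 0 in libraries 1 and 3, and Camp at 0 in library 3. The 5 erythroid markers summed to 8.11, 134 and 116 CPM, with Hbb-bs, Hba-a1 and Klf1 at 0 in library 1. The 5 B cell markers, none at 0, summed to 181, 246 and 338 CPM, and the 4 plasma cell markers to 93.9, 199 and 130.2 CPM, with Sdc1 at 0 in libraries 1 and 3. The 2 CD8 T cell markers, none at 0, summed to 27.8, 34.4 and 39.0 CPM, and the 4 monocyte or macrophage markers, none at 0, to 39.9, 25.1 and 54.3 CPM, lowest in library 2. The 8 regulatory T cell markers summed to 3588, 3564 and 3610 CPM, and 2 of them passed the test, Il2ra highest in library 3 and Nrp1 highest in library 1. The part of these other cells in the differences above was not tested.

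The wider translation pathway was read from 8 lists with 63 genes, of which 61 were tested and 16 passed, against the background of 27.6%. Ppp1r15a (GADD34), which directs the phosphatase that reverses eIF2 phosphorylation, had 958, 833 and 505 counts in libraries 1, 2 and 3. The fold of library 1 over library 3 was 1.70 (chi-square test, adjusted p = 3.1e-19). Atf4, the transcription factor whose mRNA is translated under eIF2 phosphorylation, had 577, 660 and 583 counts and fell short of the threshold (chi-square test, adjusted p = 0.199). Impact, which restrains GCN2, passed and was highest in library 1, and the other 6 of the 8 genes tested in this list did not pass.

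In the mTORC1 list 5 of 14 genes passed. Rptor, the mTORC1 scaffold, had 213, 127 and 117 counts and was highest in library 1, as was Pdcd4, an inhibitor of eIF4A. Rheb, the GTPase that activates mTORC1, and Tsc2, its negative regulator, were highest in library 2, and the S6 kinase gene Rps6kb1 in library 3. Of 7 termination and recycling genes tested 4 passed: Mcts1 and Denr, whose products act as a pair in recycling, both highest in library 2, and the recycling ATPase gene Abce1 and the rescue factor gene Hbs1l highest in library 3.

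In the remaining lists the calls were fewer. Among mitochondrial factors Mtif2 and Gfm2 passed (2 of 9), and among enzymes of the eIF5A and eEF2 modifications Dph7 and Dph1 (2 of 8), all 4 highest in library 1. The selenocysteine list had 1 of 6, Secisbp2, highest in library 3. The poly(A)-binding and scanning helicase lists had 0 of 5 and 0 of 4 past the chi-square test, and 0 at an unadjusted p under 0.05. The negative binomial test called 0 of the 61 pathway genes. By level per coding base, Paip2, a partner of the poly(A)-binding protein, led its list at 1.55, and Pabpc1 followed at 0.839.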

How the data were processed

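PolyA plus RNA-seq of regulatory T cells was deposited as 3 libraries of 1 group. The authors' deposited tables hold whole-number counts per gene, not normalized, quantified with GENCODE M4 on mm10 per the descriptions deposited with the files. RNA was sheared before library construction, per the labels. The sources used here do not give the aligner, counting program, read length, strand setting or treatment of reads that match several places.

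Names, coordinates, coding lengths and coding sequences came from GENCODE M21 (GRCm38). Annotation was found for 22195 identifiers, and the 262 without it held 0.117% of the counts. The genes and the lists were chosen with earlier results of these data known. Named genes were those past the test, the 2 highest per coding length of each role, those under 1 CPM, those of the fixed ratios and complexes and, in the pathway lists, those past the test and the 3 highest. Eif2s3y and the genes of the closing observations were chosen after their values were seen. Levels are CPM by total count or unscaled counts divided by coding length. Between libraries each gene was tested by Pearson's chi-square against Poisson expectation with 2 degrees of freedom, using totals times TMM factors (0.990, 1.02 and 0.993; edgeR 4.0.16, R 4.3.3), a minimum mean count of 10 and Benjamini-Hochberg adjustment. The labels give these libraries as technical replicates, and p-values cover the spread between these libraries only. Markers of other cells differed between them, as given above, and whether they are repeats of 1 preparation was not tested. The test was tried on simulated counts. Folds carry 95% exact binomial intervals for the highest and the lowest library. These were picked after the counts were seen, and the intervals do not allow for that choice. Coding 50-mers were searched on both strands in the transcripts of genes that do not overlap the gene, and identity came from a global alignment with Biopython 1.88. Scripts ran in Python 3.11.15 with scipy 1.17.1, numpy 2.4.6, matplotlib 3.10.9 and pandas 2.3.3.

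The alternatives tried were size factors from DESeq2 1.42.0, unadjusted totals, other filters and thresholds, a negative binomial variance, thinning, other lengths and leaving out each library. Measures per unshared 50-mer and other lengths and cuts of shared sequence were added after the data were seen.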

Additional observations from a re-analysis of the deposited data

How the results depend on the processing

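The number of factor genes called between libraries was 20. It was 0 with the negative binomial variance (0.904% of all genes tested), 13 at a threshold of 0.01 (16.5%) and 7 of the 35 tested among genes of at most 0.5 counts per coding base (25.5%). It ranged from 8 to 16 when 1 library was left out (9.38% to 19.5%). With DESeq2 size factors it was 22 of 60 (27.6% of all genes tested), with plain totals 19 of 60 (27.9%) and with thinning 19 of 60 (25.4%). At minimum mean counts of 1 and 50 it was 18 of 63 (21.7%) and 19 of 56 (33.2%). These counts stayed within 1.5 times of the 20. All 20 lost the call under the negative binomial variance, and no other call was gained there. The number detected, 62, moved under none of the alternatives tried by over 1.5 times. The median level was 114.5 CPM over genes at 1 CPM or more in every library, and the share of counts was 1.32% with counts divided by coding length.

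Of the 10 log2 ratios, Eif4a1 over Eif4a2 turned to 0.18 and Eif4e over Eif4e2 to 0.59 per unshared 50-mer. Eif4g1 over Eif4g3, close to 0, turned to -0.11 with counts not divided by length, and ranged from -0.050 to 0.12 when 1 library was left out (-0.050 without library 2). The cause was not tested. Eif4e over Eif4ebp2 moved to 2.38 not divided by length, 2.33 per exonic base and 2.69 per unshared 50-mer, and Eif4g2 over Eif4g1 to 2.46 not divided by length. Per exonic base Eif4g2 over Eif4g1 was 1.98, Eif4ebp1 over Eif4ebp2 1.57, Eif4g1 over Eif4g3 0.49, Eif5a over Eif5a2 6.58, Eif2ak4 over Eif2ak3 0.53 and Eif1 over Eif1b -1.10. Not divided by length Eif2ak4 over Eif2ak3 was 0.84 and Eif4e over Eif4e2 -0.95. The SD among subunits for eIF3, eIF2, eIF2B and eEF1B was 2.15, 2.80, 0.26 and 1.24 with counts not divided by length, and 2.33, 2.53, 0.71 and 1.19 per exonic base. Per unshared 50-mer it was 1.20 for eIF3 without Eif3j1 (1.09 per coding base over the same 12 subunits), 1.28 for eIF2, 0.57 for eIF2B and 1.11 for eEF1B. Genes near the limit numbered 9 at 1 count per coding base, 0 at 2 counts, 0 per exonic base and 11 per unshared 50-mer. No paired analysis was possible because there was 1 group. The values of Eif2s3x, Eif5a2, Eif3j1, Eif4ebp3 and Eef1a2 rest on few counts, under 30 in every library.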

Other observations

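Low counts beside near-complete sharing of coding sequence also appeared in translation genes of the pathway lists, picked here after their values were seen. Rps6, the ribosomal protein at the end of the S6 kinase branch of mTORC1, had 10, 20 and 5 counts in libraries 1, 2 and 3, and 100% of its coding 50-mers stand in genes elsewhere. Tufm, the mitochondrial elongation factor that brings aminoacyl-tRNA to the ribosome, had 49, 46 and 49 counts with 92.3% shared, while its mitochondrial partners Tsfm and Gfm1, which share none, had 222, 263 and 222 and 418, 434 and 400 counts. Pabpc4, a poly(A)-binding protein, had 19, 35 and 23 counts with 82.3% shared, against 1623, 1686 and 1495 counts for Pabpc1 with 30.8% shared. Low counts also occurred with no shared 50-mer, as in Mtrf1 (51, 64 and 48 counts), Mtrf1l (33, 30 and 34) and Paip2b (55, 49 and 29). The part of shared sequence in these counts was not tested.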
